A study of Musca domestica with 29 samples.

Results

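The heat shock genes with a gene symbol in the expression tables of the house fly, Musca domestica, were hsp20 and HSP70, and both are described across every library. They are hsp20, a small heat shock protein gene on Muller element C, and HSP70, on Muller element E. The pair was taken by symbol alone, as 2 of the 16540 rows in the abdomen table and the same 2 of 16540 rows in the head table. Neither lies on element A, which corresponds to chromosome III of the house fly, nor on element F, its X chromosome.

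Heat shock proteins are chaperones that keep other proteins folded, and many of their genes are switched on by heat and other stress through the heat shock factor. Small heat shock proteins such as those encoded by hsp20-type genes hold unfolding proteins without using ATP and keep them from aggregating. Proteins of the HSP70 family use ATP to bind and release unfolded stretches, and in flies the family has heat-inducible members and cognates that are made without heat. In Drosophila, small heat shock genes are also expressed without heat in the gonads.

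The series asked how 2 naturally occurring proto-Y chromosomes, YM and IIIM, which carry the male-determining factor in different males, relate to gene expression. Its 29 poly(A) RNA libraries came from abdomens and heads dissected from individual flies, and the labels name no heat treatment, age or rearing temperature. YM males were of strain IsoCS, YM(III) males of strain bwbCS, IIIM #1 males of strain CS and IIIM #2 males of strain CSrab, with 3 biological replicates of each genotype in each tissue. The labels call all males isogenic apart from the proto-Y, and YM(III) males also differ in 1 copy of chromosome III. The females, labelled isogenic with each other, numbered 2 for abdomen (replicate 1 of strain IsoCS and replicate 2 of CSrab) and 3 for head (replicate 1 of IsoCS, replicate 2 of CSrab and replicate 3 of CS). Each female library therefore came from a strain of its own, and p-values below measure the spread between these single-fly samples. Neither the main fits by sex, proto-Y type and genotype nor the ratio permutations had a replicate term. That spread therefore includes differences between replicate numbers.

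Depth differed between replicate numbers. Among male abdomens, replicates 1 and 2 held 0.79 to 8.58 megareads (M reads) and replicate 3 held 17.61 to 43.47 M reads, and among male heads the ranges were 5.8 to 30.82 and 31.86 to 39.24 M reads. Female libraries held 13.9 and 30.53 M reads for abdomen and 28.99 to 29.84 M reads for head. The lowest read count behind any value of hsp20 or HSP70 was 181 reads, for hsp20 in the female abdomen of replicate 2. The female yolk protein gene yp3 and the egg gene bcd, the 2 matched of a list of 6 female reproductive genes, summed to 2538 to 3668 normalized counts in female abdomens and 49.3 to 792 in male abdomens. In heads their sum was 583 to 6560 in females and 24.3 to 149 in males. The neuropeptide gene pdf was at 0 to 8.80 in male abdomens, at 0 and 0.328 in female ones and at 411 or more in every head.

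Values are the authors' normalized read counts, in which each library's reads are divided by 1 factor per library. They were scaled separately for each tissue and not corrected for gene length, so hsp20 and HSP70 are compared across samples and not with each other. Reads that fit other small heat shock or HSP70 copies of near-identical sequence may be split or shared by the authors' counting, and both genes are uncertain to that extent. In whole tissue, a lower value cannot be told apart as fewer cells of a type or less RNA in each cell.

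hsp20 was far higher in male than in female abdomens, and HSP70 was not called different. In male abdomens hsp20 measured 3028, 2450.2 and 1201 normalized counts in YM replicates 1, 2 and 3, and 5174, 4443 and 1959 in YM(III). It measured 3090.1, 2702 and 2065 in IIIM #1 and 3702, 1769 and 2043 in IIIM #2. The female abdomens measured 119.9 (IsoCS) and 80.9 (CSrab). The lowest of the 12 male values was thus above the higher female value, and the groups did not overlap. How many of all genes show no overlap here was not counted.

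The group means of hsp20 in abdomen, from high to low, were 3859 ± 1685 in YM(III), 2619 ± 517 in IIIM #1, 2505 ± 1046 in IIIM #2, 2227 ± 934 in YM (each SD, n = 3) and 100.4 ± 27.6 in females (SD, n = 2). Neighbouring male groups in this order overlapped in their values. Fitted over all genes with limma on log2(value + 1), hsp20 was 4.70 log2 units higher in males (SE 0.42, 95% interval 3.80 to 5.61, 26.1-fold, adjusted p = 1.74e-06). In the same comparison 71.3% of the 11486 genes tested were called at an adjusted p under 0.05, and 39% were called higher in males, so the call itself set hsp20 apart from few genes. By size, 9.34% of the genes had a log2 difference at least as large in either direction. The difference was 4.42 to 4.99 with any 1 library left out. The sums of yp3 and bcd moved with sex in the same libraries, and their part in the hsp20 difference was not tested.

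HSP70 in male abdomens measured 26044, 27549.7 and 20907 in YM, 33267, 30233 and 34849 in YM(III), 31009.6, 28527 and 22849.8 in IIIM #1, and 24932, 35309.8 and 32558 in IIIM #2. Female abdomens measured 30139 (IsoCS) and 37671 (CSrab), and the lower of these lay within the male range. The fitted difference was −0.23 log2 units (SE 0.23, 95% interval −0.73 to 0.26, limma adjusted p = 0.361). It was −0.40 without the female of replicate 1 and −0.074 without that of replicate 2 (limma adjusted p = 0.288 and 0.848). The median log2 difference over all genes was 0.42 with the authors' scaling, and it was −0.04 when reads were scaled to the total of each library. With that scaling HSP70 was called lower in males, at −0.70 (limma adjusted p = 0.0337). Relative to the median of all genes the 2 scalings gave the same value for HSP70, −0.66, while hsp20 stood at 4.28 above that median with the authors' scaling. As a share of all reads, HSP70 took 0.603% and 0.607% in the female abdomens and 0.268% to 0.507% in the males, without overlap. The share of all genes without overlap on this scale was not counted.

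The balance of the 2 genes within a library can be read without any scaling. The log2 ratio of hsp20 to HSP70 was −3.46 ± 0.58 in male abdomens (SD, n = 12) and −8.40 ± 0.63 in female abdomens (SD, n = 2). The highest female ratio was −7.96 and the lowest male ratio was −4.32. The difference of 4.94 had p = 0.022 in a two-sided exact permutation test, the smallest p that 12 against 2 libraries allow, and 0.0879 after adjustment over the 4 ratio tests made.

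**Figure D1:**
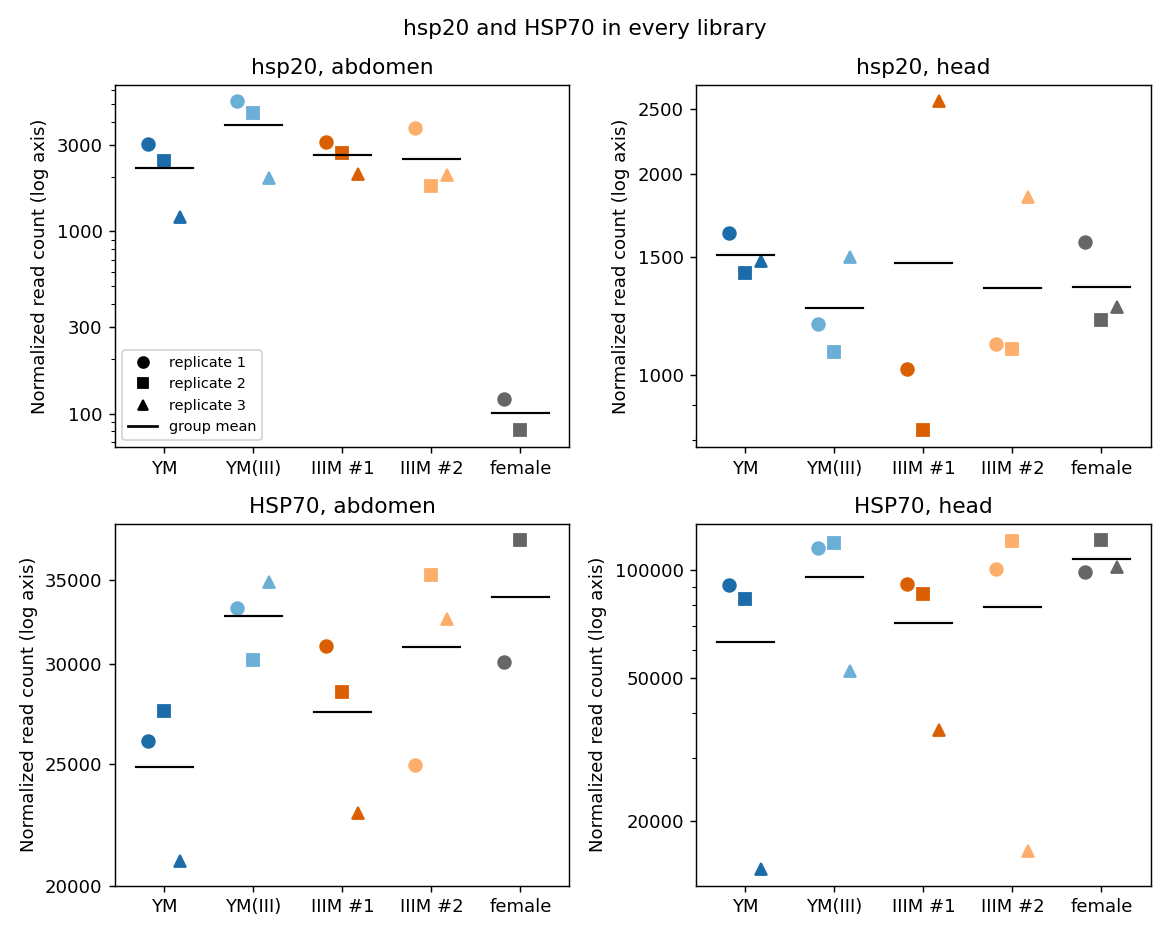
Normalized read counts of hsp20 (upper panels) and HSP70 (lower panels) in every library, on log axes, by male genotype and for females, with point shape for the replicate number and a line at each group mean. The female abdomens sit at 119.9 and 80.9 for hsp20, below all male abdomens, and the male heads of replicate 3 sit between 14721 and 52565 for HSP70, below all other heads. How many of all genes separate in these ways was not counted.

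In heads neither gene was called different between the sexes. For hsp20 the values were 1634, 1423 and 1483 in YM, 1191, 1082 and 1504 in YM(III), 1020.3, 826 and 2570.4 in IIIM #1, and 1114, 1095 and 1847 in IIIM #2. Female heads measured 1583 (IsoCS), 1210.4 (CSrab) and 1265 (CS), all inside the male range. The group means of hsp20 in head ran from 1514 ± 109 in YM through 1472 ± 956 in IIIM #1, 1353 ± 201 in females and 1352 ± 429 in IIIM #2 to 1259 ± 219 in YM(III) (each SD, n = 3), an order in which neighbouring groups overlapped. The fitted difference of males from females was −0.01 log2 units (SE 0.28, 95% interval −0.60 to 0.59, limma adjusted p = 0.991), and 16.5% of the 12234 genes tested were called.

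HSP70 in heads measured 91042, 82922 and 14721 in YM replicates 1, 2 and 3, and 115051, 119125 and 52565 in YM(III). The values were 91696, 85854 and 35979 in IIIM #1 and 100462, 120574 and 16559 in IIIM #2. Female heads measured 98789 (IsoCS), 121156 (CSrab) and 102063 (CS). The females lay within the range of male replicates 1 and 2, 82922 to 120574, apart from the CSrab female, which lay just above it, and every male replicate 3 lay below all other heads. The female head numbered 3 was not low. How many of all genes have every male replicate 3 below all other heads was not counted.

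From high to low the group means of HSP70 in head were 107336 ± 12080 in females, 95580 ± 37308 in YM(III), 79198 ± 55172 in IIIM #2, 71176 ± 30621 in IIIM #1 and 62895 ± 41917 in YM (each SD, n = 3), with overlap between neighbours. Males minus females was −0.74 log2 units (SE 0.63, 95% interval −2.10 to 0.61, limma adjusted p = 0.464). With male replicates 1 and 2 alone, chosen after the values were seen, it was −0.10 (limma adjusted p = 0.458), and hsp20 was then at −0.22 (limma adjusted p = 0.0927).

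The 2 tissues of each sex can be set side by side as CPM, each gene's reads scaled to the total of its library, without a test, since their tables were normalized apart. In males hsp20 took 187 to 674 CPM in abdomen (median 392) and 40.3 to 135 in head (median 61.6), with every abdomen above every head. In females the order was turned, with 13.0 and 24.0 CPM in abdomen and 55.3 to 81.1 in head. HSP70 in males took 2678 to 5069 CPM in abdomen, and 815 to 2793 in the heads of replicate 3 against 4041 to 5421 in those of replicates 1 and 2. In females HSP70 took 6026 and 6065 CPM in abdomen and 5062 to 5538 in head.

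**Figure D2:**
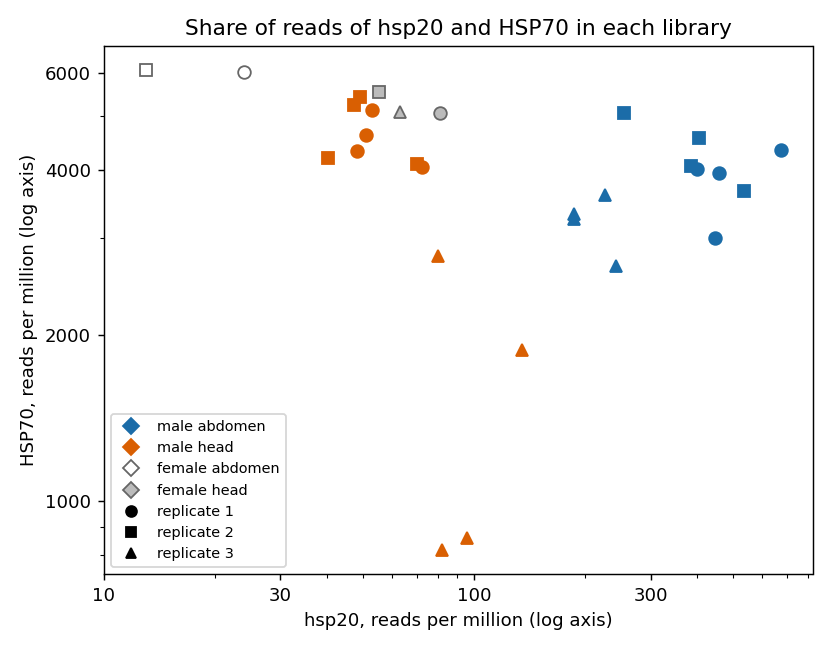
CPM of hsp20 (x axis, log) and of HSP70 (y axis, log) in each of the 29 libraries, with colour for sex and tissue and point shape for the replicate number. Female abdomens lie at the far left, at 13.0 and 24.0 CPM of hsp20, male abdomens at the right, from 187 to 674, and male heads of replicate 3 at the bottom, from 815 to 2793 CPM of HSP70.

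The proto-Y comparison, which the series title names, gave no call for either gene. In abdomen, males with YM or YM(III) averaged 3043 ± 1511 normalized counts of hsp20 and males with IIIM #1 or #2 averaged 2562 ± 741 (each SD, n = 6). The fitted difference was 0.13 log2 units (SE 0.33, 95% interval −0.59 to 0.86, limma adjusted p = 0.960), in a comparison that called 0.0265% of genes. For HSP70 the means were 28808 ± 5100.3 and 29198 ± 4709 (each SD, n = 6), and the difference was −0.02 (SE 0.18, 95% interval −0.41 to 0.37, limma adjusted p = 0.989).

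In head, hsp20 averaged 1386 ± 208 in YM types and 1412 ± 666 in IIIM types (each SD, n = 6). The fitted difference was 0.08 log2 units (SE 0.27, 95% interval −0.51 to 0.66, limma adjusted p = 0.99985), and 0.473% of genes were called. HSP70 averaged 79238 ± 39750.1 and 75187 ± 40149 (each SD, n = 6), a fitted difference of 0.08 with the wide interval of −1.27 to 1.43 (SE 0.61, limma adjusted p = 0.99985). The spread behind this interval includes the difference between replicate 3 and the other replicates. The log2 ratio of hsp20 to HSP70 differed between proto-Y types by 0.16 in abdomen (two-sided exact permutation p = 0.636) and by −0.01 in head (two-sided exact permutation p = 0.996). Adjusted over the 4 ratio tests these p-values were 0.848 and 0.996, and the ratio of the sexes in head differed by 0.74 (two-sided exact permutation p = 0.523, adjusted 0.848).

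Among the 4 male genotypes, limma's F test gave adjusted p-values of 0.758 for hsp20 and 0.749 for HSP70 in abdomen, where 2.72% of genes were called, and 0.999 for both in head, where 1.08% were called. Of the 6 pairs of genotypes in each tissue, 0 were called for either gene by limma, and 0 had an unadjusted p under 0.05. Over all genes, 9.49% in abdomen and 1.47% in head were called in at least 1 of the 6 pairs. The intervals of the pair differences reached from −1.80 to 1.61 log2 units for hsp20 and from −0.96 to 0.81 for HSP70 in abdomen. In head they reached from −0.91 to 1.11 for hsp20 and from −2.81 to 2.52 for HSP70. Without replicate 3 the head intervals reached from −0.57 to 1.03 for hsp20 and from −0.76 to 0.73 for HSP70.

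With replicates 1 and 2 alone, YM types minus IIIM types for hsp20 was 0.39 log2 units in head (SE 0.093, limma adjusted p = 0.0533) and 0.41 in abdomen (SE 0.25, limma adjusted p = 0.532). In this setting hsp20 differed among the male heads by genotype (limma F test, adjusted p = 0.0321, with 13.5% of genes called). Both YM values of these replicates, 1634 and 1423, were above all 6 of the other genotypes, 826 to 1191. YM exceeded IIIM #1 by 0.73 log2 units (SE 0.13, limma adjusted p = 0.029, in a pair that called 1.9% of genes), which was the 1 called pair of 6, beside 20.7% of genes called in at least 1 pair. YM exceeded YM(III) by 0.43 and IIIM #2 by 0.47 (limma adjusted p = 0.0756 and 0.0812). HSP70 was not called in this setting (limma F test, adjusted p = 0.125), and its widest gap was YM below YM(III), at −0.43 (SE 0.14, limma adjusted p = 0.0941).

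The authors' deposited table rests on the same 2 replicates, as its mean values hold replicates 1 and 2 only. For head, the authors' deposited table gives hsp20 a log2 fold change of −0.73 in CS against IsoCS, with an adjusted p of 0.0175, where 3.18% of its genes were under 0.05. In bwbCS against IsoCS, HSP70 has 0.43 in the authors' deposited table, with an adjusted p of 0.0387, where 7.37% of its genes were under 0.05. The other 14 values for these genes in the authors' deposited table, over 4 strain comparisons and both tissues, have adjusted p-values of 0.175 or more. In the comparisons not yet given, bwbCS against IsoCS, CS against IsoCS, CSrab against IsoCS and CSrab against CS in abdomen, the authors' deposited table has 10%, 4.94%, 5.13% and 1.87% of its genes under 0.05, and in head CSrab against IsoCS has 4.24% and CSrab against CS 5.96%. No call of this kind appeared once replicate 3 entered the fit.

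**Figure D3:**
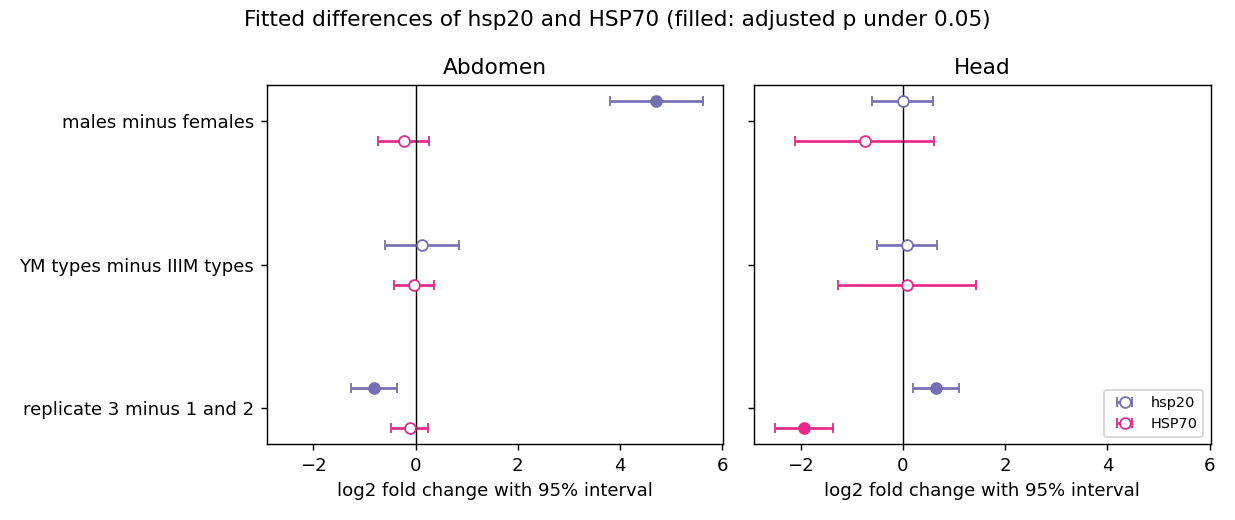
Log2 fold changes of hsp20 and HSP70 with 95% intervals from limma, by comparison (rows) and tissue (panels), with filled points at an adjusted p under 0.05. The filled points are hsp20 by sex in abdomen at 4.70, hsp20 by replicate number at −0.82 in abdomen and 0.65 in head, and HSP70 by replicate number in head at −1.94.

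Within male genotypes, replicate 3 stood apart from replicates 1 and 2, most of all for HSP70 in head. The comparison was chosen with male libraries of replicate 3 already known to stand apart in earlier results of these data. Its p-values in both tissues are therefore descriptive. HSP70 fell below both other replicates in the heads of all 4 genotypes. How many of all genes do so was not counted, nor was it for the genotypes counted in this way for hsp20 and for abdomens below. The mean of replicates 1 and 2 was 5.91-fold above replicate 3 in YM, 2.23-fold in YM(III), 2.47-fold in IIIM #1 and 6.67-fold in IIIM #2. The fitted difference was −1.94 log2 units (SE 0.25, 95% interval −2.51 to −1.37, 3.83-fold lower, limma adjusted p = 0.000297), and it was called with any 1 library left out, from −2.20 to −1.67. Replicate 3 was called different for 47.6% of the 12060 genes tested, 23.9% higher and 23.7% lower, and 4.87% had a difference at least as large as that of HSP70.

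hsp20 moved the other way in the same heads. Replicate 3 was above both other replicates in 3 of 4 genotypes, at 2.79 times their mean in IIIM #1, 1.67 times in IIIM #2 and 1.32 times in YM(III), and it was at 0.970 times their mean in YM. The fitted difference was 0.65 log2 units (SE 0.20, 95% interval 0.20 to 1.09, limma adjusted p = 0.0229). The call was lost without IIIM #1 replicate 3 (0.37, limma adjusted p = 0.0724) and without IIIM #2 replicate 3 (0.62, limma adjusted p = 0.0608).

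In abdomens hsp20 was lower in replicate 3, by −0.82 log2 units (SE 0.20, 95% interval −1.27 to −0.37, limma adjusted p = 0.0133), where 32.2% of genes were called and 17.7% were called lower. Replicate 3 lay below both others in YM, YM(III) and IIIM #1, at 0.439, 0.408 and 0.713 times their mean, and between them in IIIM #2. The call was lost without YM replicate 3 (−0.70, limma adjusted p = 0.0583) and without YM(III) replicate 3 (−0.66, limma adjusted p = 0.0682). HSP70 in abdomens was at −0.12 (SE 0.16, 95% interval −0.48 to 0.25, limma adjusted p = 0.617), with replicate 3 below both others in YM and IIIM #1, above both in YM(III) and between them in IIIM #2. Scaling to total reads moved the median step of all genes by −0.22 in abdomen and 0.21 in head. Relative to that median the steps were −0.79 for hsp20 in abdomen, 0.62 for hsp20 in head and −1.96 for HSP70 in head, beside −0.78, 0.62 and −1.96 with the authors' scaling.

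Other measures moved with the replicate number in heads. Of a list of 8 symbols for head and nervous system genes, 3 were matched: pdf, IR25a and argos. Their sum was 1093 to 1481 normalized counts in male heads of replicate 3 and 1711 to 2289 in those of replicates 1 and 2. Of the 3 genes only pdf had a lower median in replicate 3 (599 against 1255). Its ranges were 411 to 762 against 1155 to 1620, and female heads had 562 to 624. IR25a stood at 511 to 634 in replicate 3 against 378 to 587 (medians 552 and 492). For argos the ranges were 78.9 to 150.1 against 80.5 to 128 (medians 111 and 98.3). The 4 immune genes diptericin, attacin, defensin-1 and lysozyme, matched of a list of 5, summed to 814 to 2534 in replicate 3 and 2077 to 18433 in replicates 1 and 2. These ranges overlapped, and the genes did not all move alike. By median, defensin-1 (750 against 5265) and attacin (36.8 against 166) were lower in replicate 3. Medians of diptericin (29.1 against 15.9) and lysozyme (0.245 against 0) were not lower. In abdomens these sums were 44.9 to 178 against 96.9 to 459 for the head and nervous system genes and 79.6 to 996 against 120 to 54104 for the immune genes. There IR25a stood at 10.4 to 146 against 38.8 to 429 and argos at 28.3 to 34.9 against 23.0 to 64.4. The gene pdf was at most 8.80 and added little to the abdomen sums. Depth was higher in replicate 3 in both tissues, and the part of depth and of these genes in the hsp20 and HSP70 differences was not tested. The labels state nothing that separates replicate 3 from the others, and any shared day of rearing, dissection or sequencing cannot be told apart from it.

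**Figure D4:**
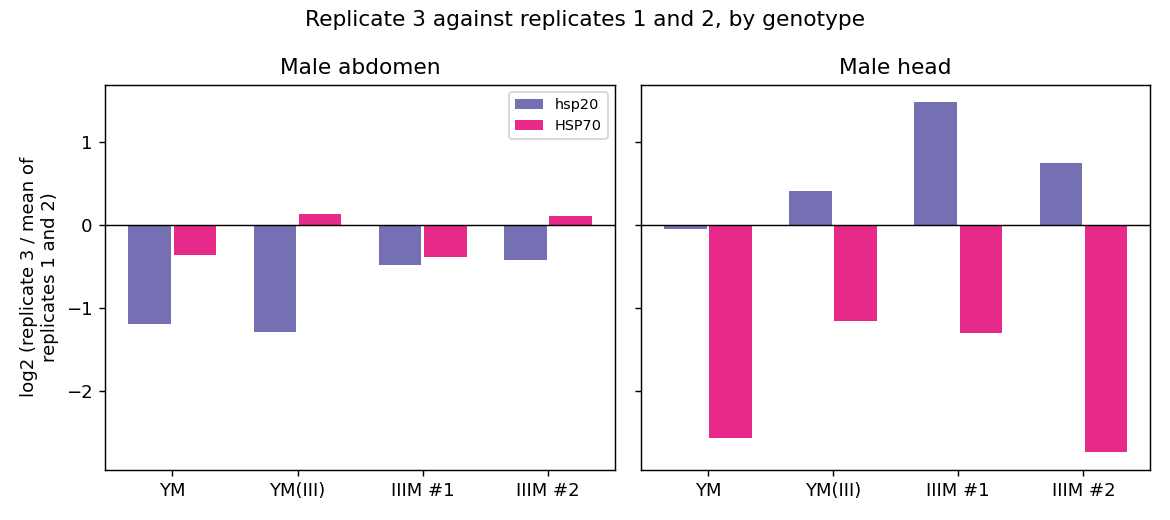
Log2 of the normalized count in replicate 3 over the mean of replicates 1 and 2 (y axis), for hsp20 and HSP70 in each male genotype, by tissue (1 value per bar, so no error bar). HSP70 bars in head all point down, from 2.23-fold lower in YM(III) to 6.67-fold lower in IIIM #2, while hsp20 bars point down in all abdomens and up in the heads of 3 of 4 genotypes.

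Whether the step at replicate 3 differed between proto-Y types was asked after these values were seen. The step of hsp20 in YM types minus that in IIIM types was −0.93 log2 units in head (SE 0.27, 95% interval −1.55 to −0.31, limma adjusted p = 0.998). In abdomen it was −0.83 (SE 0.32, 95% interval −1.55 to −0.11, limma adjusted p = 0.99965). For HSP70 it was 0.16 in head (SE 0.54) and 0.01 in abdomen (SE 0.36). None was called, and this comparison called 0% of genes in both tissues. The adjusted p-values therefore do not show that the hsp20 steps were equal. An unadjusted limma p under 0.05 was found for hsp20 in both tissues, beside 416 of 12060 genes in head and 225 of 11342 in abdomen.

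Within replicates 1 and 2 the correlation of hsp20 with HSP70 over male libraries passed the test in neither tissue. In abdomens over all replicates the correlation of their log2 values was r = 0.28 (permutation p = 0.384) with rho = 0 (permutation p = 1, n = 12), and r = −0.35 without the 2 libraries farthest from the median of hsp20. Within replicates 1 and 2 it was r = −0.13 (exact permutation p = 0.755, n = 8) and rho = −0.02. Male heads of replicate 3 formed a separate cluster in HSP70, so no value pooled over all heads is given, since it would mix the clusters. Within replicates 1 and 2 the head value was r = −0.12 (exact permutation p = 0.756, n = 8) and rho = −0.17 (exact permutation p = 0.703). Adjusted over both tissues, the p-value of r within replicates 1 and 2 was 0.756 in each. Replicate 3 alone has 4 libraries, too few for a value.

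Of chaperone genes with a symbol the tables hold 3 more, CCT-delta, CCT-eta and CCT-zeta, which encode subunits of the ring-shaped CCT chaperonin that folds actin and tubulin. With hsp20 and HSP70 they made a list of 5. By sex in abdomen 4 of the 5 were called, hsp20 higher in males and the 3 CCT genes lower, beside 39% of all genes called higher and 32.4% called lower. With scaling to total reads all 5 were called, as HSP70 was then lower too. The share of all genes called with that scaling was not counted. The list's median log2 difference was −0.64, beside 0.42 over all genes.

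CCT-zeta measured 6029 ± 931 normalized counts in female abdomens (SD, n = 2) and 1732 ± 244 in males (SD, n = 12), a difference of −1.80 log2 units (SE 0.21, limma adjusted p = 1.42e-05). CCT-delta was at −0.90 (SE 0.33, limma adjusted p = 0.0271), from 784 ± 112 in females (SD, n = 2) against 438 ± 137 in males (SD, n = 12). Leaving out either female replicate ended that call (−0.75 and −1.04, limma adjusted p = 0.183 and 0.0769). CCT-eta was at −0.64 (SE 0.23, limma adjusted p = 0.0263), and without female replicate 1 it was at −0.34 (limma adjusted p = 0.344).

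In heads 2 of the 5 were called by sex, both lower in males, beside 10.1% of all genes called lower, and the list's median was −0.74 beside −0.01. They were CCT-zeta, at 7611 ± 116 in females (SD, n = 3) and 3450 ± 327 in males (SD, n = 12), which was −1.15 log2 units (SE 0.12, limma adjusted p = 9.79e-05), and CCT-eta at −0.45 (SE 0.10, limma adjusted p = 0.00959). The CCT-eta call was lost without female replicate 3 (−0.40, limma adjusted p = 0.077). CCT-zeta lies on element A, chromosome III of the house fly.

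By proto-Y type 0 of the 5 were called in either tissue by limma, edgeR or DESeq2. Over all genes limma called 0.0265% in abdomen and 0.473% in head, so 0 of 5 does not set the list apart. The number with an unadjusted limma p under 0.05 was 0 in abdomen, beside 727 of all 11342 genes. In head it was 1, CCT-eta, beside 586 of all 12060 genes. The list's medians were 0.11 in abdomen and 0.03 in head, beside −0.01 over all genes in each. By replicate number 1 of the 5 was called in abdomen, hsp20, beside 32.2% of all genes, with a list median of −0.12 beside −0.04. In head 3 of the 5 were called, hsp20 higher and HSP70 and CCT-delta lower in replicate 3, beside 47.6% of all genes, with a list median of −0.15 beside 0.03. CCT-delta fell with HSP70 in those heads, from 1656 ± 173 in replicates 1 and 2 (SD, n = 8) to 911 ± 408 in replicate 3 (SD, n = 4), by −0.97 log2 units (SE 0.19, limma adjusted p = 0.00242).

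**Figure D5:**
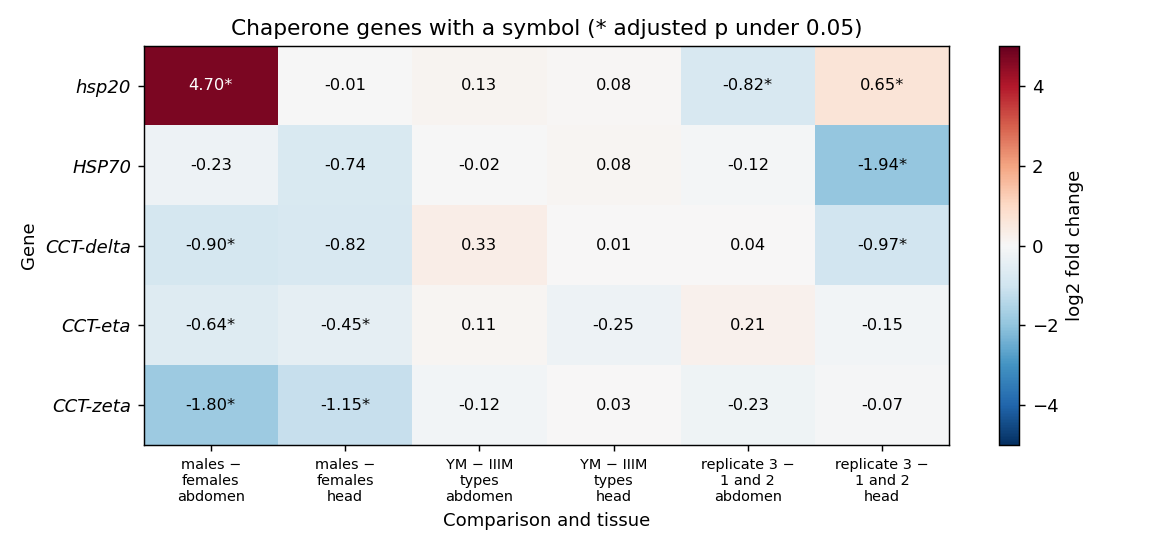
Log2 fold changes from limma of the 5 chaperone genes with a symbol (rows) in each comparison and tissue (columns), with the value in each cell and a star at an adjusted p under 0.05. The hsp20 cell for sex in abdomen, 4.70, has the opposite sign to the CCT cells beside it, −0.90, −0.64 and −1.80.

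The genes whose profile over the 12 male libraries was most like each of the pair are given as a description, by Pearson's r of log2 values among genes with a mean of at least 50 (8093 in abdomen and 9885 in head). For hsp20 in abdomen they were LOC101896687 at 0.949, LOC101895208 at 0.938 and LOC101894192 at 0.938. The closest with a symbol were MdaE7, an alpha-esterase gene, at 0.905 and AQP, a water channel gene, at 0.790. LOC101896687 ran from 1613 to 8991 normalized counts over these libraries. For hsp20 in head they were LOC101893397 at 0.886, LOC101899790 at 0.884 and LOC101896071 at 0.879, and with a symbol the serpin gene SPN9 at 0.843 and caspase-1 at 0.696.

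For HSP70 in abdomen the closest profiles were LOC101888105 at 0.886, LOC105261419 at 0.878 and LOC101892987 at 0.871, and with a symbol CCT-zeta at 0.745 and GST-6A, a glutathione transferase gene, at 0.666. For HSP70 in head, where the points of replicate 3 stand apart, r was higher. LOC101901036 had 0.995, LOC101898629 had 0.995 and LOC101888992 had 0.993, and with a symbol Mda2 had 0.979 and CCT-delta had 0.962. Mda2 ran from 153 to 3425 normalized counts over the male heads. All r values of both genes here pool the 3 replicates, so they include the step at replicate 3. That step was called for 47.6% of genes in head and 32.2% in abdomen. Likeness within replicates 1 and 2 alone was not measured.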

How the data were processed

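Poly(A) RNA of single-fly abdomens and heads was sequenced from TruSeq Stranded mRNA libraries, per the labels' protocols. The submitters' processing notes list DESeq2 1.16.1, HTSeq 0.9.1, HISAT2 0.12.2 and, CASAVA 1.8. The genome build and the strand setting of the counting are not given in the sources used here. The authors deposited, for each tissue, a normalized count per library, a linear signal in which reads are divided by 1 factor per library. They also deposited their own log2 fold changes, mean values (a signal) and adjusted p-values. All normalized values were whole multiples of the worth of 1 read within 0.001 reads, so reads and depth were recovered.

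Genes at 10 or more in at least 3 libraries were fitted as log2(value + 1) with limma 3.58.1 (R 4.3.3, variance trend, robust moderation), with 1 mean per group and Benjamini-Hochberg adjustment over all genes tested, two-sided. Fold changes on that scale understate changes of low values. The step at replicate 3 was fitted with replicate 3 as a term. As alternatives, the recovered reads were fitted with DESeq2 1.42.0 and with edgeR 4.0.16. Ratios and correlations were tested by permutation (scipy 1.17.1), exact where a group had under 10 values and otherwise with 100000 resamples. Other alternatives were TMM or total-read scaling, pseudocounts of 0.1 and 5, no filter on low values or a minimum mean of 50, subsets of males, a replicate block, and each library left out. The fit was tested on simulated data with 200 changed genes.

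Named genes were both heat shock genes, every chaperone with a symbol, and the 3 most alike genes plus the 2 most alike with a symbol. A planned search for sequence relatives was not run, as no protein table was used here. Of 16540 gene identifiers, 13644 matched the reference gene table. The members and lists were chosen with earlier results of these data known. As a check of pairing, deviations of same-numbered male libraries of different genotypes were correlated: in head all 18 pairs were over 0.1 (lowest 0.287). In abdomen 17 of 18 were (lowest 0.0686). Deviations were taken from each genotype's mean over its 3 replicates, so the shared step at replicate 3 enters all of them. Libraries of unlike number were not compared. The check therefore cannot show whether the numbers pair the libraries. Plots used matplotlib 3.10.9.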

Additional observations from a re-analysis of the deposited data

Results flagged for a closer look

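For hsp20 the direction of the difference between tissues was opposite in the sexes. In females head libraries held 3.59 times the CPM of abdomen libraries, at 66.5 ± 13.2 (SD, n = 3) against 18.5 ± 7.7 (SD, n = 2), and every head was above every abdomen. In males the ratio of head to abdomen was 0.187, at 68.7 ± 27.0 against 367 ± 152 (each SD, n = 12), and every head was below every abdomen. The difference was not tested, as the tissues were normalized separately. How many of all genes lack overlap between tissues, or turn direction between the sexes, was not counted, so this pattern is not shown to be rare.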

How the results depend on the processing

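The sex difference of hsp20 in abdomen and the replicate difference of HSP70 in head kept their direction and their call under every alternative run. Over all results and alternatives, 49 values changed sign, 18 lost the call and 2 gained it. For the ratio tests this count used the unadjusted permutation p. The losses therefore include the ratio by sex in abdomen with a female left out, which was not under 0.05 after adjustment in the main test either. The sign changes were all of values that were not called. The sex comparison rests on 2 female abdomens and 3 female heads, and with a female abdomen left out the lone one is assumed to vary like the other groups. In abdomen 2 libraries under 1 M reads limit precision. Where a call changed, the cause was not tested. Counts of called chaperones under alternatives stand without the share of all genes called in the same setting, which was not counted.

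Scaling to total reads gave −0.70 for HSP70 by sex in abdomen, 0.060 for HSP70 by proto-Y type in abdomen, and 2 chaperones called by replicate number in abdomen. Without the libraries under 1 M reads, hsp20 by proto-Y type in abdomen was −0.033 and the proto-Y difference in the replicate step of HSP70 in abdomen was −0.0058 (DESeq2, −0.0042). For hsp20 by sex in head, edgeR gave 0.028, DESeq2 0.046, YM males alone 0.17 and males of the females' strains 0.027. For hsp20 by proto-Y type in head, edgeR gave −0.014 and DESeq2 −0.034. Chaperones called by sex in abdomen numbered 2 with YM males alone and 2 with YM(III) males alone, and in head 1 with IIIM #1 and 1 with IIIM #2 males alone. With replicates 1 and 2 alone, the F test of hsp20 in head gave adjusted p = 0.0321 (limma), the ratio of hsp20 to HSP70 in head differed by −0.12 by sex and 0.36 by proto-Y type, hsp20 by proto-Y type was 0.39 in head and 0.41 in abdomen, and the abdomen correlation was −0.13.

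With each library left out in turn, the ranges by proto-Y type were −0.0034 to 0.35 (hsp20) and −0.10 to 0.036 (HSP70) in abdomen, and −0.086 to 0.32 (hsp20) and −0.37 to 0.51 (HSP70) in head. By sex, hsp20 in head ranged from −0.13 to 0.11. By replicate number, hsp20 ranged from −0.99 to −0.66 in abdomen and from 0.37 to 0.88 in head. HSP70 by sex in abdomen ranged from −0.40 to −0.074. The proto-Y difference in the HSP70 step ranged from −0.24 to 0.27 in abdomen and from −0.56 to 0.87 in head. The log2 ratio ranged from 4.50 to 5.38 by sex in abdomen and from −0.46 to 0.47 by proto-Y type in head. Against 1 female abdomen alone the permutation test could not give a p under 0.05, whatever the values. Called chaperones ranged from 2 to 4 by sex in abdomen, 1 to 2 in head, and by replicate number 0 to 1 in abdomen and 2 to 3 in head (4 with DESeq2).

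With a replicate block, HSP70 by sex in head was −0.74 (limma adjusted p = 0.152) and hsp20 by sex in abdomen 4.98, and the block changed no call of hsp20 or HSP70. It took the chaperones called by sex in head from 2 to 3. In abdomen 17 of 18 same-number pairs correlated above 0.1 and the lowest was at 0.0686. The labels give no shared origin, and in neither tissue were the numbers taken to pair the libraries.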
